A study of Homo sapiens with 20 samples.

Results

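The cytochrome P450 family 4 genes described here are CYP4A11, CYP4A22, CYP4F2, CYP4F3, CYP4F11, CYP4F12 and CYP4V2. The 7 genes were taken as all array probes whose transcript accession leads to one of these symbols, which gave 10 probes of the 42405 on the array. All 10 probes passed the filter on dim probes, and the 7 genes are among 22221 genes tested. They were measured in HepaRG, a human hepatoma cell line whose progenitors form hepatocyte-like and biliary-like cells in culture, on 20 one-color arrays, 4 for each of 5 conditions. All cells grew in medium with serum, insulin and hydrocortisone. D4 and D15 are cells at day 4 and day 15 after seeding, never exposed to dimethyl sulfoxide (DMSO). D30 − DMSO and D30 + DMSO are cells at day 30, kept from day 15 without the solvent or with 2% of it. D34 ± DMSO are D30 + DMSO cells that were kept for 4 more days after the solvent was taken away. The methods call the 4 arrays of a condition independent biological replicates. One hepatoma line stands for all conditions, and the labels call its cells hepatic stem cells.

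CYP4 enzymes sit in the membrane of the endoplasmic reticulum and place a hydroxyl group on the terminal, or omega, carbon of fatty acids. Alcohol and aldehyde dehydrogenases then turn the product into a dicarboxylic acid, which peroxisomes shorten. In liver this route handles fatty acids that mitochondria do not burn, and it also makes or inactivates signalling lipids such as 20-hydroxyeicosatetraenoic acid (20-HETE) and leukotriene B4. CYP4A11 is a main hydroxylase of medium-chain fatty acids in human liver and kidney, and CYP4A22 is its close paralogue. CYP4F2 makes 20-HETE and starts the breakdown of vitamins E and K, CYP4F3 inactivates leukotriene B4, and CYP4F11 acts on long-chain hydroxy fatty acids and vitamin K. CYP4F12 hydroxylates arachidonic acid and some antihistamines. CYP4V2 is a fatty acid hydroxylase mutated in Bietti crystalline dystrophy of the retina.

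The bases before the start site are shown for the CYP4F genes because CYP4F2 and CYP4F3 moved together across conditions while CYP4F11 moved less. RefSeq windows of 250 bases were found for 4 of the 7 genes, with none for CYP4A11, CYP4A22 and CYP4F12. The coordinates are those of GRCh38.p14 and each sequence runs in the direction of its gene. CYP4F2 is at chr19:15898075-15898324 on the minus strand and CYP4F3 at chr19:15641062-15641311 on the plus strand. CYP4F11 has a window at chr19:15934868-15935117, called upstream here, and one at chr19:15934530-15934779, called downstream, both on the minus strand. Capitals mark the CCAAT box, read here as its reverse complement ATTGG.
CYP4F2: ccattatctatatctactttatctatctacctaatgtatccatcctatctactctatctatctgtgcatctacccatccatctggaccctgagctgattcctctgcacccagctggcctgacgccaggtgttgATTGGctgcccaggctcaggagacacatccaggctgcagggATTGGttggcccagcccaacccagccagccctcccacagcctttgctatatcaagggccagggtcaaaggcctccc
CYP4F3: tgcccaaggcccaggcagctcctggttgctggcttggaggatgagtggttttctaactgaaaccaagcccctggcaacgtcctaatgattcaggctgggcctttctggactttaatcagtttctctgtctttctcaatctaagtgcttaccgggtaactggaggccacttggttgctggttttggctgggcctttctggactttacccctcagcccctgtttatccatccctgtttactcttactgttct
CYP4F11 upstream: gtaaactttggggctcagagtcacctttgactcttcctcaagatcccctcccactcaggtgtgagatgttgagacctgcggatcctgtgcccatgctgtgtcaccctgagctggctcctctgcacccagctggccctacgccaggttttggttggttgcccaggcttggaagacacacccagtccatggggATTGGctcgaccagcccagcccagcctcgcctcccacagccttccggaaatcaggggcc
CYP4F11 downstream: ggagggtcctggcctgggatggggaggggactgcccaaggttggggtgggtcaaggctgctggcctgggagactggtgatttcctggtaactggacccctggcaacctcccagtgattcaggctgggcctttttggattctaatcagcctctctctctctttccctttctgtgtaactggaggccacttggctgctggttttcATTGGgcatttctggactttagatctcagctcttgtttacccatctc

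The CYP4F2 window aligned with the upstream CYP4F11 window over 231 bases with 72.3% identity, and CYP4F3 with the downstream one over 216 bases with 78.7%. CYP4F2 and CYP4F3 aligned to each other with 58.7% identity, within the 53.4% to 65.4% that the CYP4V2 window gave against these windows. CYP4F2 held 2 CCAAT boxes, starting 117 and 76 bases before the start site, each CYP4F11 window held 1, and CYP4F3 and CYP4V2 held none. Of all 35116 windows of this length, 32% hold CCAAT on either strand. The nuclear receptor half-site AGGTCA, which lies in 12.1% of all windows on either strand, was found only in CYP4V2 among the 5 windows of these genes, 123 bases before the start. TATAAA, present in 10.7% of all windows, and CACGTG, in 6.34%, were in none of them. Exact half-sites repeated 1 base apart, the spacing used by PPARA with its partner RXRA, were in none of them. Such exact repeats were in 0.0171% of all windows, so finding none says little. Repeats with inexact letters were not looked for. These matches describe letters in a short window and are not binding sites.

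**Figure D1:**
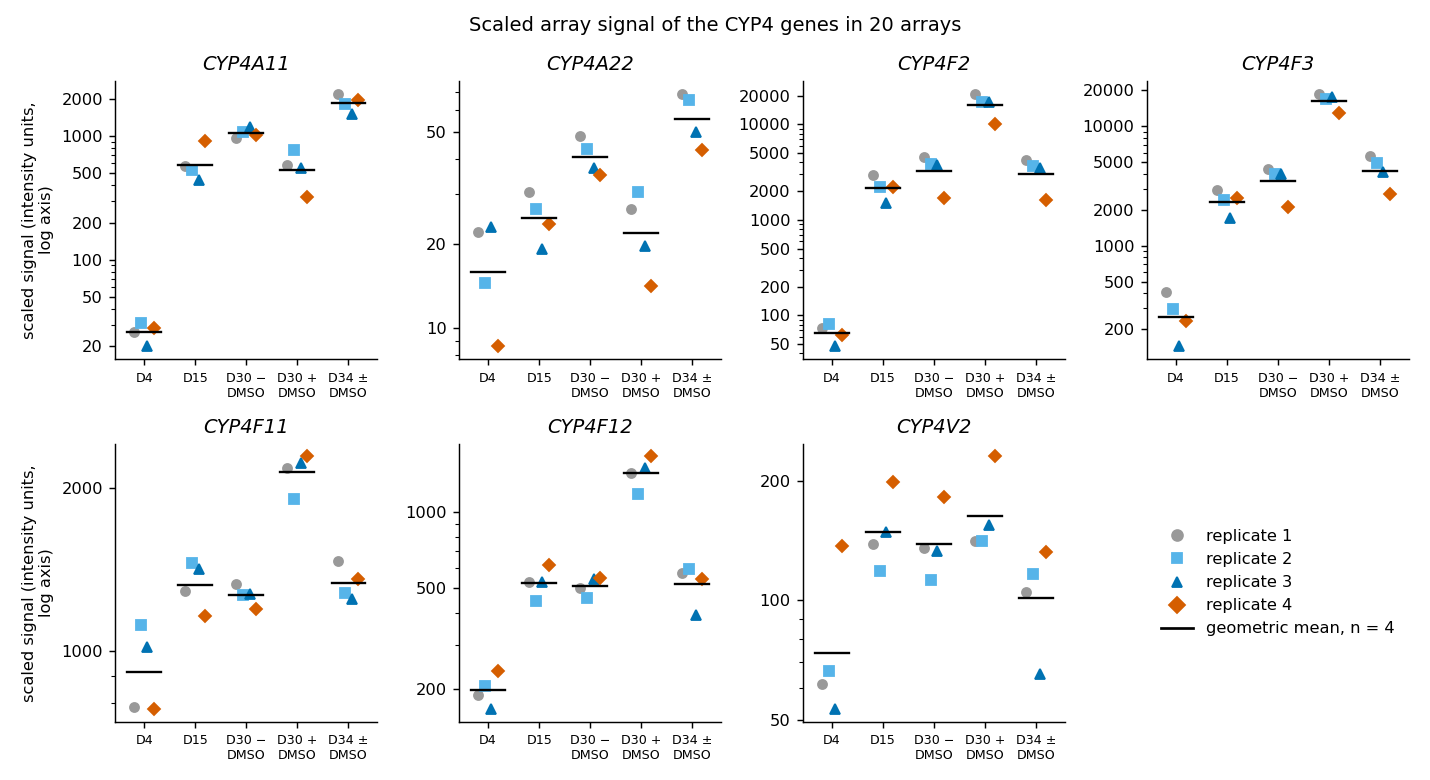
Scaled signal in intensity units on a log axis of the 7 CYP4 genes, 1 panel a gene, in the 5 conditions. Points are arrays, with shape and color giving the replicate number, and bars are geometric means of 4 arrays. CYP4F2, CYP4F3, CYP4F11 and CYP4F12 were highest at D30 + DMSO, and CYP4A11 and CYP4A22 at D34 ± DMSO.

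Signals are the processed array intensities, scaled so that the 75th percentile of every array is 546 units. Log2 levels are given relative to that percentile. Before scaling, the percentile lay between 407 and 766 units. A probe's brightness depends on its sequence, so levels were compared between conditions for 1 gene and not between genes. Every probe of the 7 genes exceeded its background clearly on all 20 arrays, by the scanner software's flag, with the exception of CYP4A22, which did so on 2 of 4 arrays at D4 and on 2 of 4 at D30 + DMSO. A gene was called changed at a Benjamini-Hochberg adjusted p below 0.005 over all genes tested and more than 2-fold, the thresholds of the methods, with limma as the test. The 20 arrays lay on 4 slides. The 1 slide of the second scan session held replicate 4 of every condition and replicate 3 of D15 and D30 + DMSO. Within-slide differences of the called CYP4 genes had the direction of the pooled ones on every slide that held both conditions. All 12 hepatocyte markers, among them ALB, APOB and TTR, were well above background on every array from D15 on, and their mean log2 level was 1.24 to 2.55 at D4 and 5.73 to 6.72 later.

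The step from progenitors to committed cells, D15 against D4, asked which enzymes appear before any DMSO is given. CYP4A11, CYP4F2, CYP4F3 and CYP4F12 rose between D4 and D15, and all 7 means were higher at D15. Over all genes tested, 5.79% were called higher and 3.7% lower in this comparison. The groups did not overlap for 5 of the 7 genes, where they did not for 24.2% of all genes, and the median log2 change of the 7 was 1.41, against 0.04 over all genes tested.

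CYP4F2 had the largest change. Its signal was 74.7, 80.6, 47.4 and 62.4 units at D4 and 2969, 2217, 1514 and 2217 at D15. The rise was 33.4-fold with a 95% confidence interval of 20.5 to 54.4 (log2 change 5.06, SE 0.34, adjusted p = 3.37e-09). CYP4A11 was at 26, 30.7, 20 and 28.3 units at D4 and at 571, 528, 440 and 903 at D15. On this probe all D15 arrays thus lay far above all D4 arrays as well. This was a rise of 22.7-fold with an interval of 16 to 32.2 (log2 change 4.50, SE 0.24, adjusted p = 3.23e-10). Each of these genes has a second, dimmer probe that changed less. It gave 3.82-fold for CYP4F2, and 1.55-fold with overlapping arrays for CYP4A11.

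CYP4F3, the leukotriene B4 hydroxylase, had D4 signals of 412, 295, 144 and 235 units and D15 signals of 2930, 2408, 1704 and 2504. It rose 9.25-fold, with an interval of 5.96 to 14.4 (adjusted p = 2.1e-07). CYP4F12 was at 190, 205, 167 and 235 units at D4 and 532, 448, 528 and 616 at D15. These 2 sets of arrays did not overlap either, and the rise of 2.66-fold had an interval of 2.12 to 3.34 (adjusted p = 1.51e-06).

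The other 3 genes were not called. CYP4F11 was already at 781 to 1118 units at D4 and reached 1158 to 1451 at D15, 1.45-fold higher with an adjusted p of 4.58e-03, past the p threshold but short of 2-fold. CYP4V2 was at 61.4, 66.2, 53.2 and 137 units at D4 and 139, 119, 148 and 199 at D15, a log2 change of 1.01 with an SE of 0.28 and an adjusted p of 0.0123. Its D4 replicate 4 lay among the D15 arrays, and without that array the gene was called, with a log2 change of 1.31 and an adjusted p of 6.68e-04. It was also called with the replicate number as a block (adjusted p 3.01e-04) and on slides 1 to 3 only (1.10, 4.19e-03). CYP4A22 was at 8.58 to 23 units at D4 and 19.2 to 30.6 at D15, and its difference of 0.64 on the log2 scale had an adjusted p of 0.131.

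Over the same interval all 12 hepatocyte markers were called higher and all 10 cell cycle markers lower. Arrays of whole cultures cannot tell fewer cells of a type from less RNA per cell, and the part of a changed mixture of cells in these differences was not tested.

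In D30 − DMSO cells against D15 cells, 2 more weeks of culture without the solvent, none of the 7 genes was called, as for nearly all genes. The share called over all genes was 0.009% higher and 0% lower by limma. Of the 22221 genes, 662 had an unadjusted p below 0.05, fewer than that threshold gives when no gene changes. CYP4A11 was at 958, 1076, 1186 and 1023 units at D30 − DMSO, all above the D15 arrays, with a log2 change of 0.85 (SE 0.24) and an adjusted p of 0.695. CYP4A22 was at 48.4, 43.8, 37.4 and 35.1 units, also all above D15, with a log2 change of 0.73 and an adjusted p of 1. For the other 5 genes the arrays overlapped, as they did for all but 2.32% of all genes, and log2 changes ran from -0.10 for CYP4V2 to 0.58 for CYP4F2. The 95% intervals of CYP4F11 and CYP4F12, -0.33 to 0.21 and -0.37 to 0.29, left no room for a 2-fold change, while the interval of CYP4F2, -0.12 to 1.29, did.

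DMSO given from day 15 to day 30 was read as D30 + DMSO against D30 − DMSO. CYP4F2, CYP4F3 and CYP4F12 rose with DMSO, by 4.87-fold, 4.68-fold and 2.78-fold. CYP4A11 and CYP4A22 had lower means with DMSO and were not called. Over all genes 1.73% were called higher and 4.18% lower. The arrays of the 2 conditions did not overlap for 6 of the 7 genes, CYP4V2 being the exception, and for 25.1% of all genes. The median log2 change of the 7 was 0.76, against 0.04 over all genes.

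CYP4F2 was at 4578, 3823, 3767 and 1691 units at D30 − DMSO and at 21006, 17269, 16989 and 10152 at D30 + DMSO. Every treated array lay above every untreated one, although replicate 4 was the lowest in both conditions. The log2 change was 2.28 with an SE of 0.34 and an adjusted p of 7.82e-05. The methods' t-test, run here on the same scaled values, did not call it (adjusted p 0.0126), and is not the authors' own result. The paper lists CYP4F2 among enzymes whose expression went with a gain of the histone mark H3K4me3. Taken on the slides that held both conditions, the difference was 2.06 and 2.96 on the log2 scale.

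CYP4F3 followed closely, at 4367, 4018, 3946 and 2128 units without DMSO and 18685, 16858, 17427 and 12869 with it. Its log2 change was 2.23 with an SE of 0.30 and an adjusted p of 3.53e-05. CYP4F12 was at 500, 460, 547 and 550 units without DMSO and 1425, 1176, 1489 and 1657 with it. The 4 arrays of each condition were tight for this gene, and the log2 change of 1.48 had an SE of 0.16 and an adjusted p of 2.35e-06. CYP4F11 was at 1328, 1269, 1276 and 1197 units without DMSO and 2171, 1905, 2218 and 2283 with it. This 1.69-fold difference, with an interval of 1.4 to 2.04 and an adjusted p of 3.31e-04, passed the p threshold and fell short of 2-fold.

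The CYP4A genes lay on the other side. CYP4A11 was at 580, 770, 552 and 323 units with DMSO, all below the 958 to 1186 units without it. The log2 change was -0.99 with an SE of 0.24, just under 2-fold, and the adjusted p of 6.15e-03 missed the threshold. Without D30 + DMSO replicate 2 the gene was called lower, with a log2 change of -1.17 and an adjusted p of 2.45e-03. This was the only 1 of 23 alternatives that called it, and its log2 change over them ran from -1.17 to -0.68. A second, dimmer CYP4A11 probe gave -0.54 with overlapping arrays. CYP4A22 was at 26.5, 30.6, 19.6 and 14.1 units with DMSO against 35.1 to 48.4 without, a log2 change of -0.91 with an adjusted p of 0.034, on a probe close to background. CYP4V2 was at 141, 141, 155 and 231 units with DMSO and 135, 112, 133 and 183 without, a log2 change of 0.24 with an interval of -0.35 to 0.83.

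**Figure D2:**
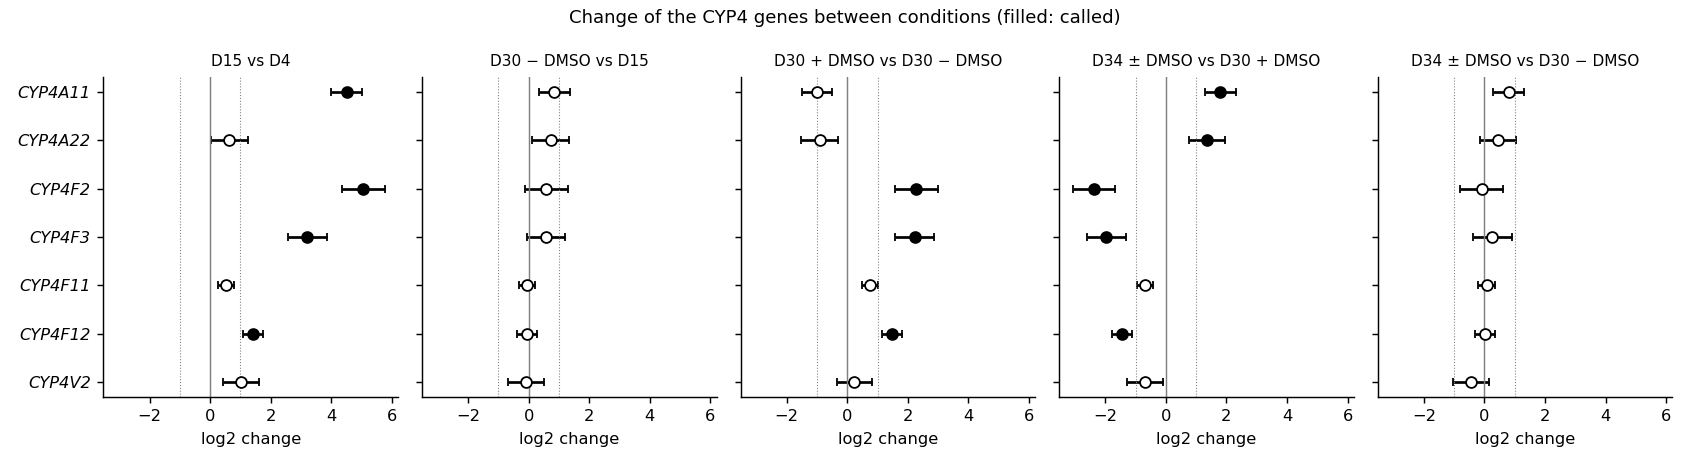
Log2 change of the 7 CYP4 genes in the 5 comparisons, 1 panel each, with 95% confidence intervals from limma. Filled points were called, open points were not, and dotted lines mark 2-fold. The CYP4F genes lay right of 0 and the CYP4A genes left of it when DMSO was added, and on the opposite sides when it was removed.

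Taking DMSO away for 4 days was read as D34 ± DMSO against D30 + DMSO. No culture was kept in DMSO up to D34, so removal and 4 more days of culture cannot be told apart. CYP4F2, CYP4F3 and CYP4F12 fell, by 5.18-fold, 3.89-fold and 2.73-fold, and CYP4A11 rose by 3.48-fold. CYP4A22 rose by a fitted 2.57-fold, with 2 of its 4 D30 + DMSO arrays above the background flag. The arrays of the 2 conditions did not overlap for any of the 7 genes, and for 23.9% of all genes. Over all genes 4.95% were called higher and 2.11% lower. This comparison shares its D30 + DMSO arrays with the one on adding DMSO, so high values there enter both. The median log2 change of the 7 was -0.69, against -0.07 over all genes.

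CYP4F2 was at 4236, 3631, 3462 and 1634 units at D34 ± DMSO, below all 4 arrays with DMSO, and fell by 2.37 log2 units (SE 0.34, adjusted p = 3.93e-05). CYP4F3 was at 5604, 4895, 4167 and 2705 units and fell by 1.96 (SE 0.30, adjusted p = 9.78e-05). CYP4F12, at 578, 595, 394 and 547 units, fell by 1.45 (SE 0.16, adjusted p = 1.87e-06). All 3 were again in the range they had at D30 − DMSO or near it. CYP4F11 was at 1466, 1277, 1246 and 1358 units, with a log2 change of -0.68 and an adjusted p of 7.14e-04, short of 2-fold. CYP4V2 was at 105, 116, 65.2 and 132 units, and its log2 change of -0.69 had an adjusted p of 0.0923.

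CYP4A11 was at 2196, 1798, 1517 and 1943 units at D34 ± DMSO. These were the highest 4 of the 20 arrays on this probe, above the 323 to 770 units with DMSO and the 958 to 1186 units without. The rise from D30 + DMSO was 1.80 log2 units (SE 0.24, adjusted p = 2.09e-05). A second, dimmer CYP4A11 probe was at 118 to 142 units at D34 ± DMSO, within its 95.5 to 176 units at D30 − DMSO. CYP4A22 was at 68.8, 65.3, 50.1 and 43.4 units and rose by 1.36 (SE 0.29, adjusted p = 1.86e-03). The call for CYP4A22 was lost without D30 + DMSO replicate 3 (1.31, adjusted p 7.67e-03) or replicate 4 (1.15, 8.50e-03), and without D34 ± DMSO replicate 1 (1.26, 8.08e-03) or replicate 2 (1.29, 7.49e-03). With normexp background correction its log2 change was 0.39. By the methods' t-test on the same values none of the 5 genes called here passed, with adjusted p-values from 5.01e-03 for CYP4F12 to 0.0291 for CYP4A22.

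All 10 cell cycle markers, among them MKI67, TOP2A and CDK1, were called higher at D34 ± DMSO than at D30 + DMSO. Their mean log2 level was -2.30 to -1.24 with DMSO and 0.83 to 1.53 after removal. Of the 8 biliary and progenitor markers tested, SPP1 and ITGB4 rose and SOX9 fell. The mean log2 level of the 8 was 1.09 to 1.15 at D30 − DMSO, 0.60 to 0.74 at D30 + DMSO and 0.82 to 1.01 at D34 ± DMSO. Of the hepatocyte markers, AHSG fell with DMSO and rose after its removal, the other 11 were not called, and the mean level of the 12 was 6.30 to 6.45, 6.32 to 6.71 and 6.48 to 6.72 at these times. No cell cycle marker was called when DMSO was added. The part of proliferation or of the mixture of cells in the CYP4 differences was not tested.

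Cells taken off DMSO were also set against cells never exposed, D34 ± DMSO against D30 − DMSO. The D34 ± DMSO cells were also 4 days older in culture, which cannot be told apart from past exposure. None of the 7 genes was called, where limma called 1.31% of all genes higher and 0.212% lower, and 3398 of all genes had an unadjusted p below 0.05. CYP4F2 differed by -0.09 on the log2 scale with an interval of -0.79 to 0.62, CYP4F12 by 0.03 with an interval of -0.30 to 0.35, and CYP4F11 by 0.08 with an interval of -0.20 to 0.35. The intervals of these 3 genes were within 2-fold in either direction. CYP4F3 differed by 0.27, with an interval of -0.37 to 0.90 that was also within 2-fold. CYP4A22 differed by 0.45 and CYP4V2 by -0.45. CYP4A11 was the only one of the 7 whose arrays did not overlap, where 12% of all genes had no overlap. All its D34 ± DMSO arrays were higher, with a log2 change of 0.80 (interval 0.30 to 1.31) and an adjusted p of 0.0651. A second, dimmer CYP4A11 probe gave a log2 change of 0.07 with overlapping arrays. The mean cell cycle level was -1.62 to -0.80 at D30 − DMSO, and 9 of the 10 markers were called higher at D34 ± DMSO.

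CYP4A11, CYP4F2 and CYP4F11 have 2 probes each, and the brighter one was used above. The dimmer CYP4F2 probe gave the same calls, with log2 changes of 1.93 for D15 against D4, 1.88 for DMSO added and -1.93 for DMSO removed. Its D30 + DMSO signals were 1520, 1193, 1497 and 1479 units, against 351 to 417 at D30 − DMSO. The 2 probes differed most at the first step, 33.4-fold on the brighter against 3.82-fold on the dimmer.

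The dimmer CYP4A11 probe was not called in any comparison. It was at 26.4 to 81.7 units at D4 and 68.9 to 116 at D15, a log2 change of 0.63 with an adjusted p of 0.235, where the brighter probe changed by 4.50. For DMSO added and removed it gave -0.54 and 0.62, in the same direction as the brighter probe and within its own spread, with adjusted p-values of 0.344 and 0.25. The dimmer CYP4F11 probe was not called either, and gave 0.92, 0.43 and -0.30 for the same 3 comparisons. The CYP4A and CYP4F genes are families of paralogues, the probe sequences were not used here, and cross-hybridisation between members could not be assessed.

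**Figure D3:**
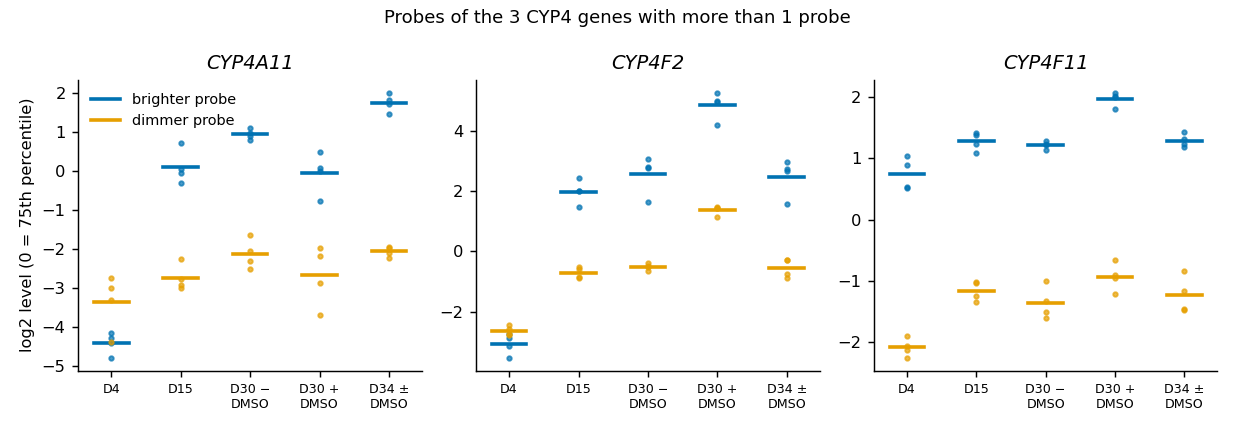
Log2 level relative to the 75th percentile of the 3 CYP4 genes with 2 probes, in the 5 conditions. Points are arrays and bars are means of 4 arrays, blue for the brighter and orange for the dimmer probe. Both CYP4F2 probes were highest at D30 + DMSO, while the dimmer CYP4A11 probe changed by 0.63 from D4 to D15 where the brighter one changed by 4.50.

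Over the 20 arrays, CYP4F2 and CYP4F3 had a Pearson correlation of 0.988 and CYP4F12 with CYP4F3 one of 0.936. The 2 CYP4A genes correlated at 0.75. CYP4A22 had its lowest correlations with CYP4V2, at -0.11, and with CYP4F11, at 0.11. The arrays share conditions and slides, so these values only describe likeness, and for paralogues they may hold shared hybridisation. The genes most like CYP4A11 among all tested were C8A (0.989), ABCA6 (0.987) and SLC22A9 (0.986), a complement component, a lipid transporter and an organic anion transporter of liver. CYP4F2 was most like ABAT (0.993) and AGXT (0.991), both aminotransferases, and a transcript listed as ENST00000397935 (0.991). CYP4F3 was most like CYP4F2, then ACSM2B (0.986) and ETNPPL (0.984).

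CYP4F12 was most like MYORG (0.993), a transcript listed as NM_000941 (0.987) and its neighbour in the family CYP4F8 (0.987). CYP4F11 was most like SAT1 (0.945), DNAJC25 (0.942) and a transcript listed as NR_024493 (0.941). CYP4V2 was most like SLC35E2B (0.953), SYBU (0.951) and ACSL1 (0.945), the last a ligase that activates long-chain fatty acids. CYP4A22 was most like a long intergenic RNA of chromosome 6 (0.928), CPN1 (0.916) and FMO1 (0.903).

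Of 13 other CYP4 genes and pseudogenes looked for, 5 were tested. CYP4F8, a hydroxylase of prostaglandin endoperoxides that lies in the CYP4F cluster, rose by 1.31 at D15, rose by 1.48 with DMSO and fell by 1.54 after its removal. CYP4B1, which acts on short-chain fatty acids and xenobiotics, rose by 3.48 at D15, changed by -0.01 with DMSO (adjusted p = 0.994) and fell by 1.57 after removal. CYP4F22, which makes omega-hydroxy ceramides of the skin barrier, fell by 2.01 with DMSO. CYP4X1 was called higher at D15, but 1 of its 4 D4 arrays passed the background flag, so its fitted change of 5.13 has no firm size, and it was not called later. The pseudogene CYP4F30P was not called in any comparison. The call of CYP4B1 after removal was lost in 11 of 23 alternatives and that of CYP4F22 with DMSO in 6. With DMSO, 1 of these 5 genes rose and 1 fell, where 1.73% of all genes were called higher and 4.18% lower. After removal none rose and 2 fell, where 4.95% of all genes were called higher and 2.11% lower. The median log2 change of the 5 was -0.01 with DMSO and -0.26 after removal, against 0.04 and -0.07 over all genes.

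The enzymes that hand electrons to CYP4 proteins and those that act on their products were read from a list of 28 genes, 26 of them tested. The matching of transcript names used here gave no probe the symbol POR, the main electron donor of these enzymes. The paper reports a higher expression of POR with DMSO. Probes left under the array's own transcript names may include it, so its change is not given here. The probes of ADH7 did not pass the filter on dim probes, and neither gene is in the counts. With DMSO, 5 rose and none fell, where 1.73% of all genes were called higher and 4.18% lower. The median log2 change of the list was 0.62, against 0.04 over all genes tested. ALDH2 (1.60), EHHADH (1.42), ACAA1 (1.29), SCP2 (1.23) and ALDH3A2 were the 5. ALDH3A2 is the fatty aldehyde dehydrogenase that makes the dicarboxylic acid, and it rose by 1.16 (SE 0.13, adjusted p = 6.42e-06), a value given for its role and chosen after values were seen. EHHADH, ACAA1 and SCP2 act in peroxisomal beta-oxidation. After removal ALDH2 fell by 1.68, SCP2 by 1.27 and ACAA1 by 1.19, none rose, and the median was -0.68 against -0.07 over all genes. ALDH3A2 then changed by -0.74 and EHHADH by -1.15, neither of them called. The calls with DMSO were lost in 11 of 23 alternatives for EHHADH and in 7 for SCP2. At D15 against D4, 10 of the 26 rose and none fell, where 5.79% of all genes were called higher and 3.7% lower. The list was chosen with earlier results of these data known and its counts are no independent support.

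Of 15 regulators, 2 rose with DMSO and none fell, where 1.73% of all genes were called higher and 4.18% lower. After removal none rose and 3 fell, where 4.95% of all genes were called higher and 2.11% lower. The median log2 change of the 15 was 0.31 with DMSO and -0.31 after removal, against 0.04 and -0.07 over all genes. NR1I3, the constitutive androstane receptor, rose by 2.43 with DMSO and fell by 2.04 after removal. NR0B2, the small heterodimer partner that represses other receptors, rose by 1.56 and fell by 2.80. PPARD fell by 1.07 after removal. Over the alternatives, NR0B2 lost its call with DMSO in 9 of 22 and PPARD its call after removal in 5 of 23. PPARA, the receptor of fatty acids in liver, had a log2 change of 1.02 at D15 that was called here and lost its call in 12 of 23 alternatives. Its change with DMSO was 0.94 (SE 0.23, adjusted p = 8.02e-03) and after removal -0.72 (adjusted p = 0.0347), neither of them called. The change with DMSO was 0.20 for RXRA, the partner of PPARA, 0.55 for HNF4A, 1.04 for NR1I2, -0.01 for NR1H4, 0.56 for SREBF1 and -0.22 for SREBF2, none called.

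Of 16 target genes of PPARA tested, 2 rose with DMSO and 1 fell. EHHADH was one, and PDK4, which restrains glucose oxidation, the other, with a log2 change of 1.10 that lost its call in 15 of 23 alternatives. Over 22 alternatives, the looser p threshold of 0.05 left out, 0 to 2 of the 16 were called higher with DMSO. VNN1, a pantetheinase, fell by 2.07 with DMSO and rose by 2.84 after removal. The median of the 16 was 0.08 with DMSO and -0.23 after removal, against 0.04 and -0.07 over all genes. With DMSO, 1.73% of all genes were called higher and 4.18% lower.

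Of 15 genes tested that make or use the eicosanoids and vitamins that CYP4F enzymes hydroxylate, 4 rose with DMSO and 2 fell. Among all genes, 1.73% were called higher with DMSO and 4.18% lower. The median log2 change of the 15 was 0.52 with DMSO and -0.27 after removal, against 0.04 and -0.07 over all genes. CYP2C19, which epoxidises arachidonic acid, rose by 2.81. TTPA, the vitamin E transfer protein of liver, EPHX1, an epoxide hydrolase, and CYP2J2 rose as well. ALOX5, the 5-lipoxygenase that starts leukotriene synthesis, fell by 2.20. ALOX5AP, its activating protein, passed the background flag on all 4 arrays at D30 − DMSO and on none at D30 + DMSO, and was at least 3.85-fold lower with DMSO. For the bound, the dim arrays were given the signal of their dimmest probe that still passed the background flag, or their own signal where that was higher. After removal ALOX5 rose by 2.08, ALOX5AP was at least 2.84-fold higher, and EPHX1 fell, a call lost in 12 of 23 alternatives.

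**Figure D4:**
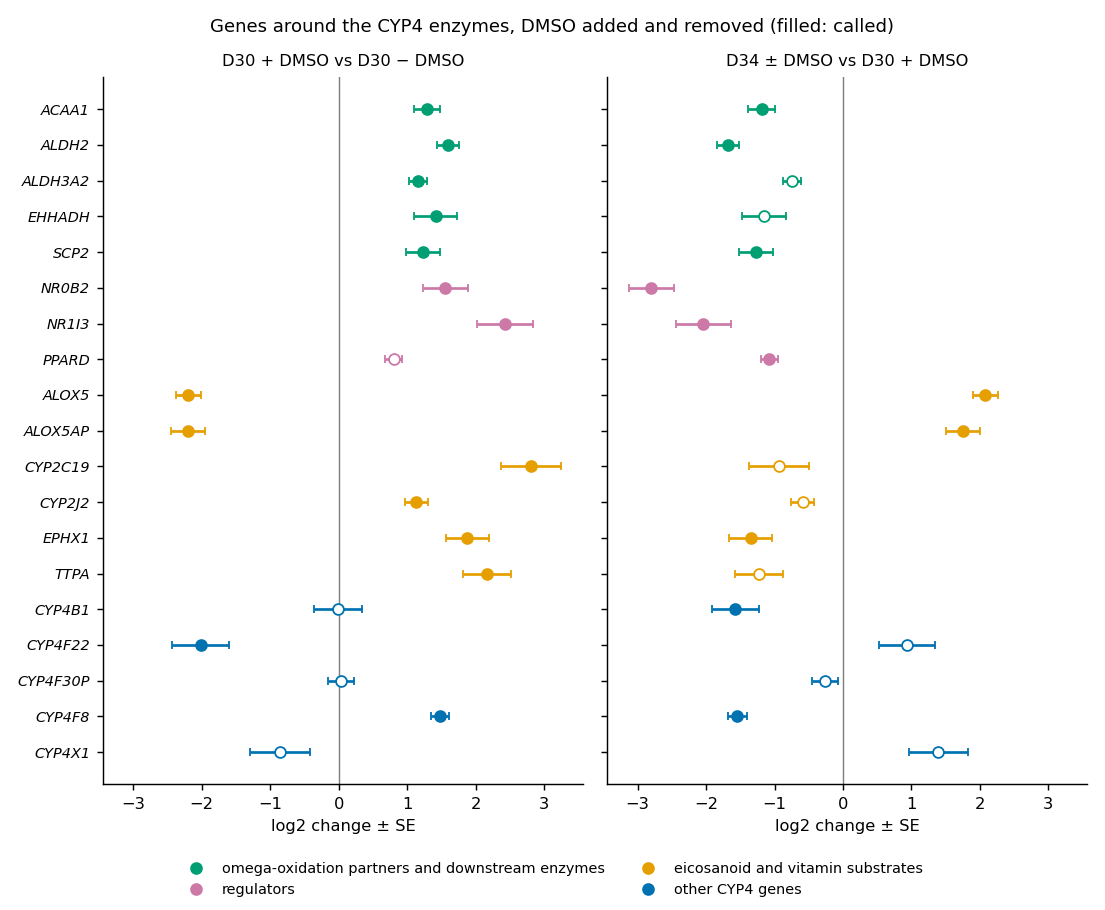
Log2 change with SE of the pathway enzymes, regulators and eicosanoid or vitamin genes called with DMSO or after its removal, and of the 5 other CYP4 genes, colored by list, with DMSO added on the left and removed on the right. Filled points were called. ALDH2, ACAA1, SCP2, NR1I3, NR0B2 and CYP4F8 lay above 0 on the left and below it on the right, and ALOX5 and ALOX5AP (a fitted value, dim at D30 + DMSO) the other way round; the panels share the D30 + DMSO arrays.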

How the data were processed

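RNA of 20 HepaRG cultures was labelled with Cy3 and hybridised to SurePrint G3 8x60K arrays, 1 array a culture. The authors deposited the output of Agilent Feature Extraction, version 10.7.1.1 in the file headers and 10.7.3.1 in the submitters' processing notes. Per the file headers, the authors had the scanner software subtract a background from each spot, and the deposited intensity was left unscaled across arrays. The deposited series matrix holds log2 values, which matched the log2 processed signal once 1 constant per probe and 1 per array were taken away, with a median absolute difference of 3.58e-07 over 21535 probes. Its column medians were -0.204 to 0.171. Conditions came from the sample labels.

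Outlier-flagged and control spots were left out, spots of a probe averaged, each array brought to 1 common 75th percentile, values below 1 unit raised to it, and log2 taken. Of 42405 probes, 26538 passed the background flag throughout some condition and were kept, and the brightest probe of a gene was used. Accessions gave a current symbol for 24826 probes, and 17579 kept the array's name. One limma model with 5 condition means was fitted over 20 arrays with limma 3.58.1 (R 4.3.3), and tested on simulated data. Promoters were aligned with Biopython 1.88 and figures drawn with matplotlib 3.10.9. The genes named are the 7 members with all probes, the other CYP4 genes, those of the pathway lists called for DMSO added or removed with 7 regulators, and the 3 genes most correlated with each member. Values of up to 4 genes a list were given. One gene of the eicosanoid and vitamin list is not reported here and was left out of its counts. The members and lists were chosen with earlier results of these data known. The number of arrays limits the precision. Alternatives covered normalization, background correction, dim-probe filter, floor, probe choice, slide, scan session, replicate block, test, threshold and each array left out. The ChIP-seq experiments were not analysed here.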

Additional observations from a re-analysis of the deposited data

Results flagged for a closer look

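In 50 sets of 4 arrays, each a probe of these genes in 1 condition, the gap of the highest or lowest array to its nearest neighbour was set against the range of the set, and 2 exceeded the 95% critical value of Dixon for 4 values. Chance gives about 1 in 20. CYP4F3 at D30 − DMSO was low on replicate 4, at 2130 units against 3950 on the next array, a ratio of 0.859. The dimmer CYP4F2 probe at D30 + DMSO was low on replicate 2, at 1190 units against 1480, a ratio of 0.887. Both genes were called for DMSO added on these probes with the arrays included.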

How the results depend on the processing

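Each of the 5 counts of called genes was recomputed under 23 alternatives, and 1 moved by over 1.5 times. By the methods' t-test, 0 of the 5 genes called for DMSO removed were called, since their adjusted p-values lay between 5.01e-03 and 0.0291. The t-test also lost CYP4F2 for DMSO added (adjusted p 0.0126). CYP4A22 after DMSO removal lost its call in 8 of the 22 alternatives that tested it, among them the fit on the 2 conditions alone (adjusted p 9.62e-03) and slides 1 to 3 only (6.03e-03, chosen after seeing the data). CYP4V2 at D15 was called in 4 alternatives. Signs turned only in comparisons where no member was called. For D30 − DMSO against D15, CYP4V2 gave 0.0056 with the slide and 0.048 with the scan session as a block, and CYP4F12 0.013 with the session and 0.038 on slides 1 to 3 only. Leaving out 1 array gave -0.12 to 0.033 for CYP4F12 and -0.23 to 0.041 for CYP4V2 there, and for D34 ± DMSO against D30 − DMSO -0.404 to 0.21 for CYP4F2 and -0.038 to 0.16 for CYP4F12.

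Same-numbered arrays of different conditions had a correlation of deviations over 0.1 in 27 of 40 pairs (median 0.27), and differently numbered ones in 43 of 120 (median -0.17). The numbers were not taken to pair the cultures, since the labels tie no number to a shared culture and not every same-numbered pair exceeded 0.1. With a replicate block, 5, 0, 3, 5 and 0 genes were called in the order of the report, where the fit without it called 4, 0, 3, 5 and 0. CYP4V2 at D15 was the gene gained (adjusted p 3.01e-04). Arrays on the same slide deviated together more (median 0.39 over 44 pairs) than others (-0.18 over 116).

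The list counts also moved. Of the pathway enzymes 3 to 6 rose with DMSO over 22 alternatives, and of the regulators 0 to 3. The looser p threshold of 0.05 was left out of these ranges. CYP4A22 lay near background, which limits its values.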
